A study of Mus musculus with 8 samples.

Results

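The genes described here are 46 genes of the route by which secretory proteins enter and leave the endoplasmic reticulum (ER): the signal recognition particle (SRP) and its receptor, the Sec61 translocon and its partners, signal peptidase, oligosaccharyltransferase, the COPII and COPI coats, and the cargo, KDEL and p24 receptors. They were chosen by name, with earlier results of these data known, from the 48709 genes listed for each library. Because of that choice, their shares beside those of all genes are descriptions and not separate evidence. All 46 were found and passed the filter on low values in every comparison. RNA-Seq had been performed on whole pancreas of 8-week-old male mice 24 hours after induction, with 2 libraries in each of the 4 groups, 8 in all. WT mice were bought from a supplier and are not described as littermates of the cKO mice. The cKO mice were *Pfkfb3* fl/fl; *Pdx1*-Cre, in which Cre under the *Pdx1* promoter removes exons 2 and 3 of *Pfkfb3* in the pancreatic lineage, islets and ducts included. FAEE-SAP mice received palmitoleic acid (POA) and ethanol i.p. to induce fatty acid ethyl ester severe acute pancreatitis, with saline and buprenorphine alongside, and control mice received saline. Genotype and source of the mice cannot be told apart, and no source says whether the libraries of a group came from separate litters or were prepared apart, so p-values measure the spread between these libraries only.

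Pancreatic acinar cells make more secretory protein per cell than almost any other cell. SRP binds the signal peptide of a nascent chain and docks it at the ER, Sec61 threads it into the lumen with help from the translocon-associated protein (TRAP) complex, signal peptidase cuts the signal peptide, and oligosaccharyltransferase adds N-glycans. COPII vesicles then carry cargo to the Golgi and COPI vesicles return escaped residents, which KDEL receptors and p24 proteins help to sort. Part of this machinery is known to be induced by XBP1 and ATF6 of the unfolded protein response, which act through short promoter motifs.

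Those motifs were looked for in RefSeq promoters of GRCm38.p6, which cover 35 of the 46 genes and reach from upstream of the start site into the first transcribed bases. The ER stress element (ERSE), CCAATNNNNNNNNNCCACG was in the promoter of 0.137% of 27025 genes and in 0 of the 35, and its second form, ERSE-II, was in 0.0444% of genes and in 0 of the 35. The XBP1-type motif TGACGTGG, searched on both strands, was in 0.714% of genes and in 4 of the 35. These were *Copb1*, *Copb2*, *Kdelr3*, and *Sec24d*. Their bases from 80 before the start site to the start site are shown with the motif or its complement in capitals, beside *Kdelr1*, a KDEL receptor without it, because the genes with the motif had values of both signs in WT: 
*Copb1*, chr7:114254680-114254760, minus strand: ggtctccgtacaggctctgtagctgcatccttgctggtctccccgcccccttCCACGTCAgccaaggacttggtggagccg
*Copb2*, chr9:98563651-98563731, plus strand: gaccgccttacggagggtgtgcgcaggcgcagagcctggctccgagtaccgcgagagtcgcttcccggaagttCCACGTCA
*Kdelr3*, chr15:79516328-79516408, plus strand: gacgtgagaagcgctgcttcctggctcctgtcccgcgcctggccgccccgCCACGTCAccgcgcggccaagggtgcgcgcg
*Sec24d*, chr3:123267416-123267496, plus strand: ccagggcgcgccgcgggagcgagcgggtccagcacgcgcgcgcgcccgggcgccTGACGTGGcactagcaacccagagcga
*Kdelr1*, chr7:45872760-45872840, plus strand: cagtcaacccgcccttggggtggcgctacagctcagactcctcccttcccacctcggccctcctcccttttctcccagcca
The motif began 28 bases before the start site in *Copb1*, 30 in *Kdelr3*, 26 in *Sec24d*, and 7 in *Copb2*, where it ended on the start site. A match is a description of letters and not a binding site.

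Library totals worked out from the low values were 22.9 to 37.8 M reads, and the 46 genes had about 83 to 9294 reads each in a library. Values are RPKM scaled by the median of ratios over all 8 libraries, and every fold change is on the scale of log2(scaled RPKM + 0.1). The scaling decides directions here. The 12 acinar enzyme markers took 51.2% to 52.5% of all RPKM with saline, and with FAEE-SAP 40.0% and 41.5% in WT and 48.2% and 48.4% in cKO. As deposited, without scaling, the median of all genes tested in WT was 1.24 higher in log2 with FAEE-SAP, against 0.02 after scaling. The changes below are therefore relative to the median gene. *Pfkfb3* could not check the genotype labels at the level of a whole gene. Its scaled RPKM was 1.70 and 1.69 with saline and 1.85 and 3.21 with FAEE-SAP in WT, and 0.880 and 2.10 with saline and 1.74 and 2.82 with FAEE-SAP in cKO, and the genotypes overlapped.

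In WT pancreata, FAEE-SAP lowered 4 of the 46 genes and raised 0 by limma with Benjamini-Hochberg adjusted p under 0.05 and a 2-fold minimum. The 4 were *Sec11c*, a catalytic subunit of signal peptidase, *Tram1*, which lies beside the translocon, *Ssr4*, the TRAP delta subunit, and *Lman1*, the lectin that carries glycoproteins out of the ER. Of all 10894 genes tested, 6.93% were called, 3.86% lower and 3.08% higher, so 4 of 46 (8.70%) was above the background share for lower genes but rests on few genes. The median log2 fold change of the 46 was -0.29, against 0.02 for all genes, with 30 negative and 16 positive. Neither WT FAEE-SAP library reached the saline libraries for 26 of the 46 (56.5%), against 29.1% of all genes, and both lay above them for 10 (21.7%), against 29.7%. Here and below, the background of all genes was not matched for expression level. It reaches down to an RPKM of 0.5, while the 46 had mean scaled RPKM of 2.84 to 52.3. At an unadjusted p under 0.05, 18 (39.1%) were lower, against 14.6% of all genes, and 4 (8.70%) higher, against 13.1%. As deposited, 24 of the 46 (52.2%) were called higher, against 65.9% of all genes, and 0 lower, with a median of 1.02, and 29 of the 46 still lay below the median of all genes. With 1 library left out the 4 calls became 0 without WT FAEE-SAP replicate 2, 1 (*Sec11c*) without WT FAEE-SAP replicate 1, 1 (*Tram1*) without WT saline replicate 1, and 3 without WT saline replicate 2, and the log2 fold changes ran from -1.45 to -1.31 for *Sec11c*, -1.41 to -1.25 for *Tram1*, -1.38 to -1.15 for *Ssr4*, and -1.42 to -0.93 for *Lman1*.

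**Figure D1:**
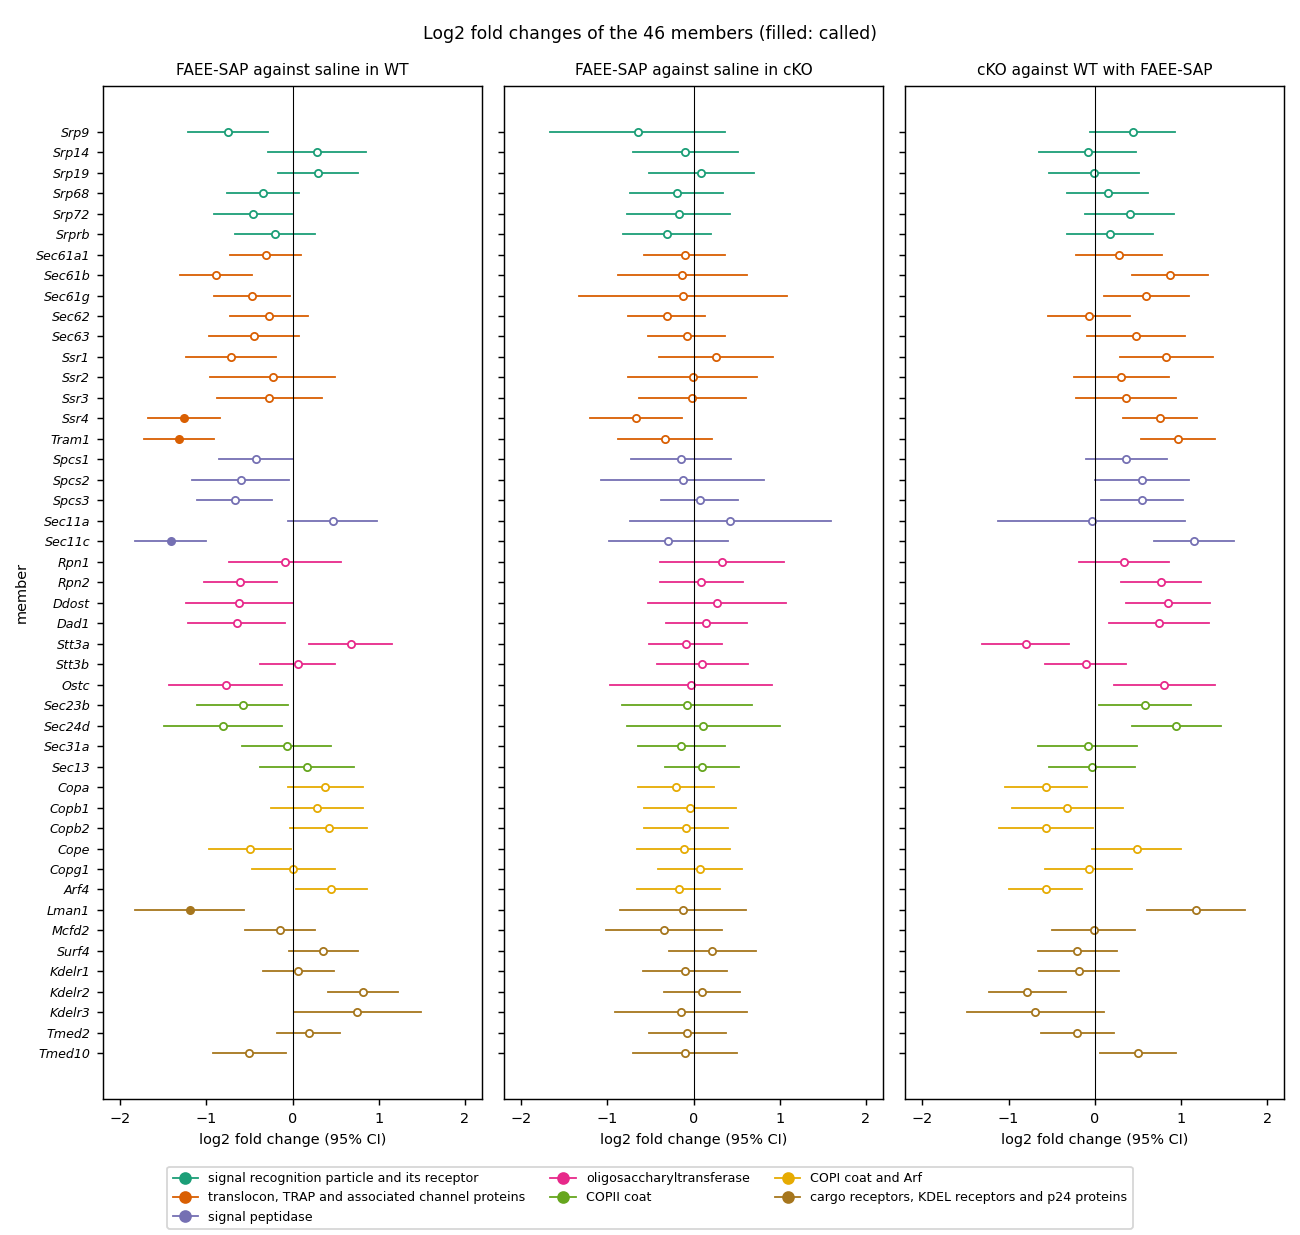
Log2 fold changes (x axis) of the 46 genes (y axis, coloured by role) with 95% confidence intervals from limma, for FAEE-SAP against saline in WT (left), the same in cKO (middle), and cKO against WT with FAEE-SAP (right), 2 libraries a group, where filled points passed the adjusted p and 2-fold thresholds. The 4 filled points, *Ssr4*, *Tram1*, *Sec11c*, and *Lman1*, all lie on the lower side in WT, and no point is filled in the other panels.

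SRP members came first in order of the route, and 0 of the 6 were called. *Srp9*, which with *Srp14* forms the Alu domain that slows elongation, was the most abundant of them. Its scaled RPKM was 36.7 and 33.9 with saline and 18.6 and 23.7 with FAEE-SAP in WT, and at 67.0 and 31.5 with saline and 29.4 and 28.0 with FAEE-SAP in cKO. Both WT FAEE-SAP libraries were the lowest of the 8, and 1 cKO saline library stood far above the rest. The log2 fold change of *Srp9* in WT was -0.75 (SE 0.19, adjusted p = 0.067). Its partner *Srp14* gave 6.08 and 7.25 with saline and 9.59 and 6.92 with FAEE-SAP in WT, and at 10.1 and 7.05 with saline and 7.71 and 7.77 with FAEE-SAP in cKO, so the groups overlapped. *Srp19*, *Srp68*, *Srp72*, and *Srprb*, the receptor's membrane anchor, had WT log2 fold changes between -0.46 and 0.29.

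The translocon group was negative in WT for all 10 of its genes, 2 of them called. *Tram1* was at 28.8 and 32.8 with saline and 12.3 and 12.3 with FAEE-SAP in WT, and at 36.3 and 27.0 with saline and 24.0 and 24.7 with FAEE-SAP in cKO. It fell by 1.32 on the log2 scale in WT (SE 0.16, adjusted p = 0.013), with no overlap, and both cKO FAEE-SAP libraries lay above both WT FAEE-SAP libraries. *Ssr4* was at 29.9 and 25.9 in WT saline and 11.7 and 11.5 in WT FAEE-SAP. In cKO it was at 36.9 and 28.2 with saline and 19.6 and 20.01 with FAEE-SAP, the only one of the 46 with an unadjusted p under 0.05 for treatment in cKO. *Ssr4* fell in WT by 1.26 on the log2 scale (SE 0.17, adjusted p = 0.016), while the other TRAP subunits, *Ssr1*, *Ssr2*, and *Ssr3*, had values of -0.72, -0.23, and -0.27 that did not pass.

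The 3 subunits of the Sec61 channel gave unequal values. *Sec61b*, the small beta subunit, was chosen for a full account after its values were seen. It was at 24.3 and 26.8 with saline and 14.6 and 13.0 with FAEE-SAP in WT, and at 36.6 and 22.1 with saline and 25.8 and 25.0 with FAEE-SAP in cKO. Its log2 fold change in WT, -0.89 (SE 0.17, adjusted p = 0.038), passed the adjusted p but not the 2-fold minimum, and without any 1 of the 4 libraries the adjusted p was 0.087 to 0.182. With no fold minimum 5 of the 46 passed on the lower side (background 4.75%) and 1, *Kdelr2*, on the higher side (background 3.33%). *Sec61a1*, the pore itself, and *Sec61g* had -0.31 and -0.47, and *Sec62* and *Sec63*, which serve post-translational import, -0.27 and -0.45, none past the test.

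In signal peptidase 1 of 5 genes was called in WT, the catalytic subunit *Sec11c*. *Sec11c* was at 19.3 and 20.2 in WT saline and 7.70 and 7.09 in WT FAEE-SAP, a fall of 1.41 on the log2 scale (SE 0.17, adjusted p = 0.011). In cKO it was at 26.1 and 16.7 with saline and 16.0 and 17.3 with FAEE-SAP, so those groups overlapped. *Sec11a*, the other catalytic subunit, had the lowest mean level of the 46 and was at 2.52 and 2.09 with saline and 3.24 and 3.18 with FAEE-SAP in WT, and at 2.11 and 2.65 with saline and 1.97 and 5.02 with FAEE-SAP in cKO. Its WT log2 fold change of 0.46 did not pass the test (adjusted p = 0.215). The accessory subunits *Spcs1*, *Spcs2*, and *Spcs3* had WT values of -0.42, -0.60, and -0.67, none called. A pseudogene named after *Spcs2* is listed in the files, and how reads were divided between them is not given in the sources used here.

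**Figure D2:**
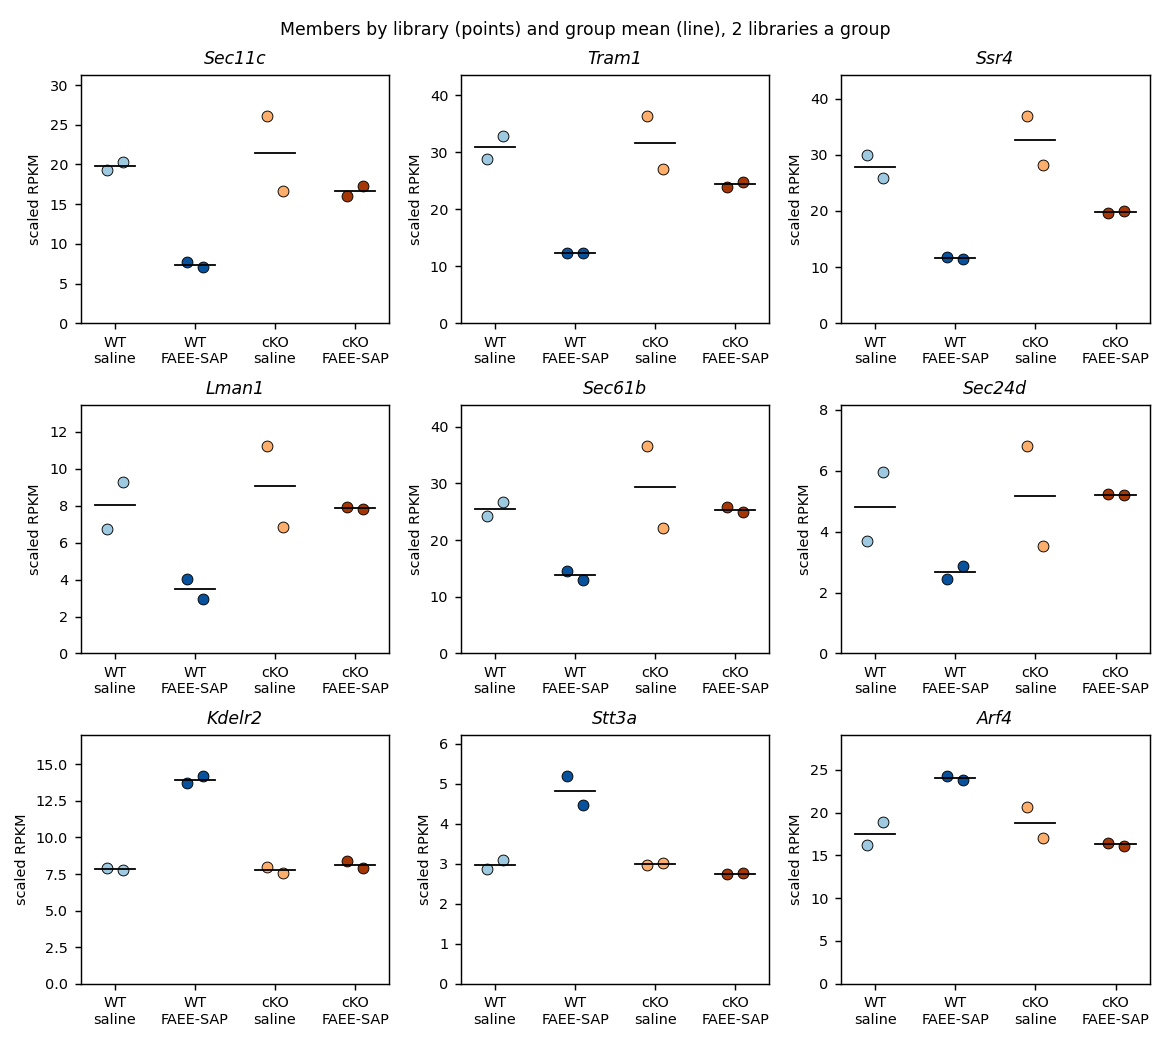
Scaled RPKM (y axis, from 0) of 9 genes in each library (points) and the group mean (line) for WT and cKO with saline or FAEE-SAP. *Sec11c*, *Tram1*, *Ssr4*, *Lman1*, *Sec61b*, and *Sec24d* have their lowest points in WT FAEE-SAP, and *Kdelr2*, *Stt3a*, and *Arf4* have their highest there.

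Oligosaccharyltransferase had 0 of 7 genes called, with WT log2 fold changes from -0.78 to 0.67. *Stt3a*, the catalytic subunit that works at the translocon, was at 2.87 and 3.09 with saline and 5.19 and 4.47 with FAEE-SAP in WT, and at 2.98 and 3.02 with saline and 2.74 and 2.76 with FAEE-SAP in cKO. Both WT FAEE-SAP libraries were the highest of the 8, and the change in log2 was 0.67 (SE 0.20, adjusted p = 0.094). *Stt3b*, the catalytic subunit for sites the first one misses, had 0.06. *Ostc*, which tethers the STT3A complex to the translocon, was at 8.80 and 13.6 with saline and 7.21 and 5.66 with FAEE-SAP in WT, and at 15.95 and 8.71 with saline and 13.2 and 9.73 with FAEE-SAP in cKO. Its value in WT was -0.78 (SE 0.27, adjusted p = 0.132). *Ddost*, a core subunit, was at 10.8 and 16.3 with saline and 9.65 and 7.79 with FAEE-SAP in WT, and at 17.6 and 10.1 with saline and 15.9 and 15.8 with FAEE-SAP in cKO. The replicates of both saline groups lay far apart for *Ddost*, and its WT value of -0.62 (SE 0.25) did not pass. *Rpn1*, *Rpn2*, and *Dad1* had -0.08, -0.60, and -0.65.

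Among the 4 COPII genes 0 were called. *Sec24d*, a cargo-binding coat subunit whose promoter holds the XBP1-type motif shown above, was at 3.68 and 5.97 with saline and 2.46 and 2.86 with FAEE-SAP in WT, and at 6.80 and 3.54 with saline and 5.23 and 5.19 with FAEE-SAP in cKO. Its log2 fold change in WT was -0.81 (SE 0.28, adjusted p = 0.132). *Sec13*, of the outer cage, was at 10.2 and 13.7 with saline and 12.1 and 14.7 with FAEE-SAP in WT, and at 12.3 and 12.7 with saline and 12.6 and 13.7 with FAEE-SAP in cKO, and the groups overlapped throughout. *Sec23b*, the partner of Sec24 in the inner coat, had -0.58, and *Sec31a*, the partner of Sec13, -0.07.

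The COPI group had a positive median in WT, 0.33, and 0 of its 6 genes were called. *Arf4*, a small GTPase of the Arf family that helps to recruit COPI, was at 16.2 and 18.9 with saline and 24.2 and 23.8 with FAEE-SAP in WT, and at 20.6 and 17.1 with saline and 16.4 and 16.2 with FAEE-SAP in cKO. The 2 WT FAEE-SAP libraries were the highest of the 8, and the change in log2 was 0.45 (SE 0.17, adjusted p = 0.153). The coat subunits with the motif, *Copb1* and *Copb2*, had 0.28 and 0.42, *Copa* 0.38, and *Copg1* 0.01. *Cope*, a subunit of the outer layer, went the other way, at 9.18 and 9.08 with saline and 7.24 and 5.83 with FAEE-SAP in WT, and at 11.6 and 8.88 with saline and 8.78 and 9.62 with FAEE-SAP in cKO. Its value in WT was -0.49 (SE 0.19, adjusted p = 0.169), so the subunits of a single coat gave values of both signs without any of them passing the test.

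Of the receptors, 1 of 8 was called. *Lman1* was at 6.73 and 9.28 with saline and 4.002 and 2.93 with FAEE-SAP in WT, and at 11.2 and 6.86 with saline and 7.93 and 7.81 with FAEE-SAP in cKO. It fell in WT by 1.19 on the log2 scale (SE 0.26, adjusted p = 0.048), the call nearest to the threshold. That call was lost as deposited, with quantile normalization, with no filter, with a pseudocount of 0.01, without the variance trend, and with the replicate block. It was also lost without any 1 of the 4 libraries, where the log2 fold change was -1.42 to -0.93. *Mcfd2*, whose protein works as a pair with LMAN1, had -0.15.

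The KDEL receptors, which retrieve ER chaperones from the Golgi, lay on the other side of 0. *Kdelr2* was at 7.91 and 7.76 with saline and 13.7 and 14.2 with FAEE-SAP in WT, and at 7.95 and 7.57 with saline and 8.37 and 7.90 with FAEE-SAP in cKO. The other 3 groups lay within 1 narrow band and WT FAEE-SAP stood above it by 0.82 in log2 (SE 0.17, adjusted p = 0.044), short of 2-fold and with an adjusted p of 0.094 to 0.165 without any 1 of the 4 libraries. *Kdelr3*, which carries the motif, had 0.75 (SE 0.30, adjusted p = 0.172) with 4.04 and 6.94 in WT FAEE-SAP, and *Kdelr1*, which does not, had 0.07. *Tmed2*, a p24 protein of COPI and COPII vesicles and the most abundant of the 46, was at 48.5 and 50.5 with saline and 55.1 and 58.0 with FAEE-SAP in WT, and at 57.1 and 49.5 with saline and 47.0 and 52.3 with FAEE-SAP in cKO. Its p24 partner *Tmed10* had -0.50 in WT against 0.19 for *Tmed2*, neither past the test. *Surf4*, a cargo receptor for soluble proteins, had 0.36.

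**Figure D3:**
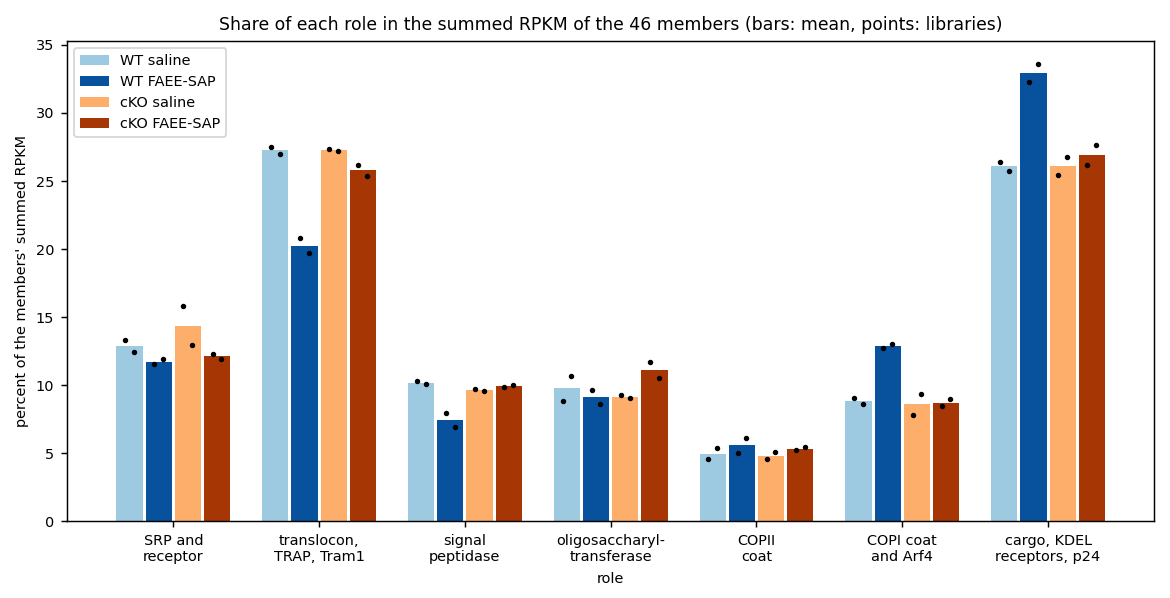
Share (y axis, percent) of each role (x axis) in the summed RPKM of the 46 genes, as group means (bars) and libraries (points). In WT FAEE-SAP the translocon group is lowest and the COPI and receptor groups are highest, and the other 3 groups of libraries lie close together for these roles.

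Shares within a library do not depend on the scaling, and were added after the values were seen. The translocon group held 27.5% and 27.0% of the summed RPKM of the 46 in WT saline, 20.8% and 19.7% in WT FAEE-SAP, 27.4% and 27.2% in cKO saline, and 26.2% and 25.4% in cKO FAEE-SAP. Signal peptidase held 10.3% and 10.1% with saline and 7.98% and 6.92% with FAEE-SAP in WT, and 9.89% and 10.003% in cKO FAEE-SAP. COPI and *Arf4* held 9.06% and 8.66% with saline and 12.7% and 13.0% with FAEE-SAP in WT, and 8.48% and 8.97% in cKO FAEE-SAP. For these 3 roles both WT FAEE-SAP libraries stood outside the range of the other 6. A share also changes when the other roles change, so it does not show which role moved.

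Ratios of gene pairs within a library were set beside these, with the pairs chosen after the values were seen and given as descriptions with no test. The ratio of *Sec11c* to *Sec11a* was 7.65 and 9.70 with saline and 2.38 and 2.23 with FAEE-SAP in WT, and at 12.4 and 6.30 with saline and 8.13 and 3.44 with FAEE-SAP in cKO. That of *Kdelr2* to *Kdelr1* was 0.573 and 0.595 in WT saline, 1.0005 and 0.971 in WT FAEE-SAP, and 0.528 to 0.702 in the 4 cKO libraries. That of *Tram1* to *Sec61a1* was 2.34 and 2.51 in WT saline, 1.17 and 1.24 in WT FAEE-SAP, and 1.79 to 2.54 in cKO. All of these ratios put both WT FAEE-SAP libraries outside the other 6, as did *Stt3a* to *Stt3b*, at 0.590 and 0.460 against 0.315 to 0.420, and *Lman1* to *Mcfd2*, at 0.129 and 0.0806 against 0.184 to 0.256. A ratio shows that a pair changed unequally and not which gene moved.

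**Figure D4:**
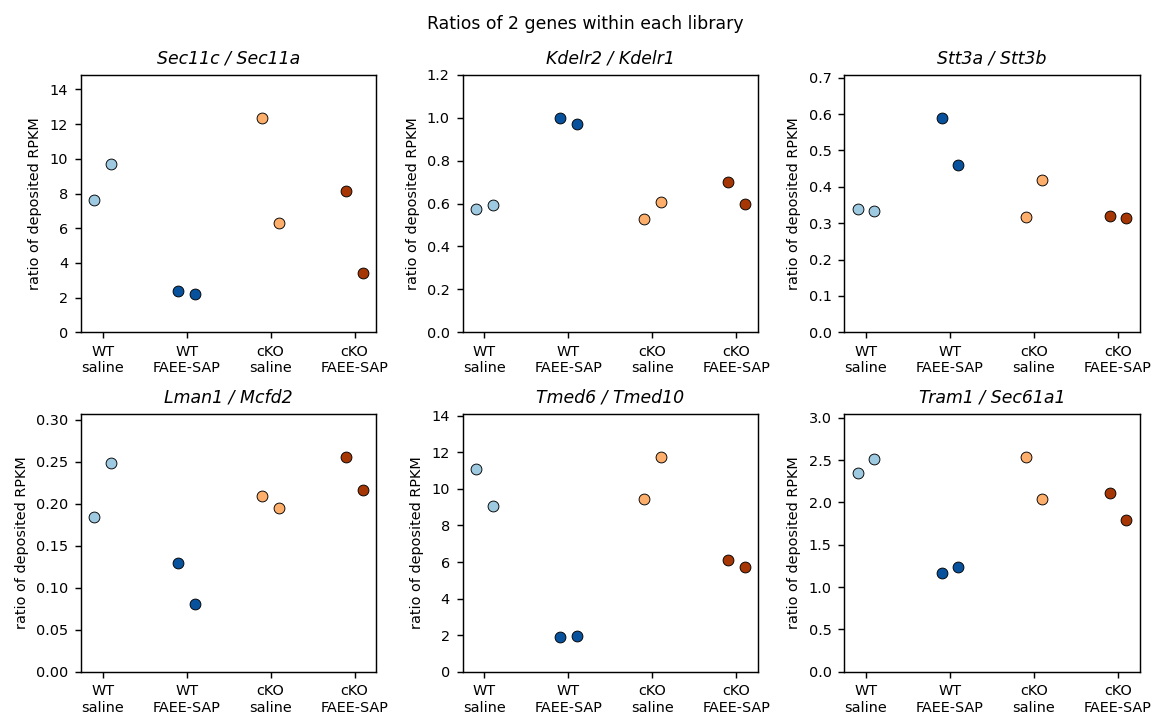
Ratio of the deposited RPKM of 2 genes within each library (y axis, from 0) for 6 pairs, by group (x axis), with each point a library. Both WT FAEE-SAP points lie outside the range of the other 6 in every panel, for example 2.38 and 2.23 for *Sec11c* to *Sec11a*.

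In cKO pancreata FAEE-SAP against saline called 0 of the 46 by limma, and 0.0531% of 9423 genes. At an unadjusted p under 0.05, 1 was lower, *Ssr4* (background 3.8%), and 0 were higher (background 5.62%). The median of the 46 was -0.09, against -0.01 for all genes, and the values ran from -0.67 to 0.43. The 95% intervals were wide, from -1.66 to 1.59 at their ends, and for 38 of the 46 they lay within a 2-fold change in either direction. One cKO saline library was the highest of all 8 for 26 of the 46, against 17.5% of all genes tested, with *Sec61g* at 14.2 there and 5.67 in the other cKO saline library. Without that library, cKO saline replicate 1, the median was 0.12.

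With FAEE-SAP, cKO was compared with WT to ask whether loss of *Pfkfb3* goes with another state of this machinery in pancreatitis. By limma 0 of the 46 were called (background 1.27%). At an unadjusted p under 0.05, 16 of the 46 (34.8%) were higher in cKO, against 10.8% of all genes, and 5 (10.9%) were lower, against 8.69%. The median was 0.33, against -0.01 for all genes. Both cKO libraries lay above both WT libraries for 27 of the 46 (58.7%, background 26.5%) and below them for 10 (21.7%, background 25.3%). As deposited, 15 (32.6%) were called lower in cKO, against 39.6% of all genes, and 0 higher, with a median of -0.63, against -0.91 for all genes. This comparison shares its WT FAEE-SAP libraries with the WT treatment comparison, so the patterns of both are not separate evidence.

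Of the 4 genes called in WT, *Lman1*, *Sec11c*, and *Tram1* had the largest values here, and *Ssr4*, at 0.76, lay below several genes that were not called in WT. *Lman1* was 1.17 higher in log2 in cKO (SE 0.23, adjusted p = 0.086), *Sec11c* 1.15 (SE 0.19, adjusted p = 0.062), *Tram1* 0.97 (SE 0.18, adjusted p = 0.078), and *Sec24d* 0.95 (SE 0.21, adjusted p = 0.108). Under some other models and filters 1 or 2 of *Sec11c*, *Tram1*, and *Lman1* passed both thresholds. *Ddost* gave 0.85 (SE 0.20, adjusted p = 0.118) and *Srp9* 0.44 (SE 0.20, adjusted p = 0.301). Lower in cKO by value were *Stt3a* at -0.80 (SE 0.21, adjusted p = 0.136), *Kdelr2* at -0.78 (SE 0.18, adjusted p = 0.118), and *Arf4* at -0.57 (SE 0.17, adjusted p = 0.173). By role the medians were 0.74 for oligosaccharyltransferase, 0.55 for signal peptidase, 0.54 for the translocon group, and -0.44 for COPI and *Arf4*, with 0 genes called in each.

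With saline, cKO against WT called 0 of the 46 by limma and 0% of all 8715 genes. At an unadjusted p under 0.05, 0 of the 46 were higher (background 1.1%) and 0 lower (background 1.04%). The values ran from -0.18 for *Spcs3* to 0.35 for *Srp9*, with a median of 0.08 that was -0.13 without cKO saline replicate 1 and -0.046 without WT saline replicate 1. For 40 of the 46 the 95% interval lay within a 2-fold change.

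The difference between genotypes in the response to FAEE-SAP was tested by the interaction over all 8 libraries, and 0 of the 46 were called by limma (background 0.0719%). At an unadjusted p under 0.05, 7 (15.2%) had a higher response in cKO, against 6.17% of all genes, and 4 (8.70%) a lower one, against 6.39%. The median of the 46 was 0.18, against 0.02 for all genes, and became 0.39 without cKO saline replicate 1 and -0.071 without cKO saline replicate 2. As deposited, 5 of the 46 (10.9%) were called lower, against 6.92% of all genes. The libraries of both genotypes lay apart in opposite directions for 3 of the 46 (6.52%), against 5.67% of all genes, a share near the background. The smallest unadjusted p-values were those of *Kdelr2*, with a log2 difference of -0.76 (SE 0.20, adjusted p = 0.254), *Tram1*, with 0.95 (SE 0.26, adjusted p = 0.255), *Stt3a*, with -0.80 (SE 0.23, adjusted p = 0.272), and *Sec11c*, with 1.08 (SE 0.31, adjusted p = 0.274). A response in WT and none called in cKO was therefore not shown to differ between the genotypes for any of the 46. The median width of the 95% interval was 1.33 in log2.

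Markers of other cells moved with the same comparisons. In bulk tissue fewer acinar cells and less RNA per acinar cell cannot be told apart. All 12 acinar enzyme markers fell in WT, with their summed scaled RPKM at 334028 to 398042 in WT saline, 98652 to 105944 in WT FAEE-SAP, 458365 to 460202 in cKO saline, and 262489 to 290010 in cKO FAEE-SAP, and 10 of the 12 were higher in cKO than in WT with FAEE-SAP. Of the neutrophil and macrophage markers 3 of the 7 tested rose in WT, namely *S100a8*, *S100a9*, and *Csf3r*. The macrophage genes *Csf1r*, *Adgre1*, and *Cd68* had -0.10, 0.35, and 0.70, and *Lyz2* had -0.01, none called. *S100a8*, at 0.14 and 0.30 in WT saline, and *Csf3r*, at 0.16 and 0.29, passed the filter only through FAEE-SAP libraries. The sum of the list was 50.7 to 63.2 in WT saline, 92.0 to 123 in WT FAEE-SAP, 59.4 to 67.6 in cKO saline, and 73.3 to 92.5 in cKO FAEE-SAP. With FAEE-SAP 1 of the 7, *S100a8*, was called lower in cKO than in WT. Islet hormones were lower in WT FAEE-SAP for 2 of 6, with sums of 271 to 320 in WT saline and 170 to 228 in WT FAEE-SAP, and 3 of 6 were higher in cKO than in WT with FAEE-SAP, where the cKO sums were 411 to 427. Plasma and B cell markers, whose cells use the same machinery, were called for 0 of 7 in WT and for 1 of 7, higher, in cKO against WT with FAEE-SAP, with sums of 94.4 to 118 in WT FAEE-SAP and 158 to 304 in cKO FAEE-SAP. Of the ductal list 1 of 4 and of the adipocyte list 1 of 4 rose in WT, the fibroblast (6 tested) and endothelial (5 tested) lists had 0 called, and no listed marker was at 0 in every library. The part of these cells in the results for the 46 genes was not tested.

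Other genes of the same pathways were counted by lists of their roles. In WT 0 of 20 other translocation genes, 1 of 36 other glycosylation genes, 2 of 29 other COPII genes, and 2 of 28 other COPI, Arf, and p24 genes fell, against 3.86% of all genes, and 0 rose, against 3.08%. Counts of 0 to 2 genes a list are near what the background share gives. The p24 genes *Tmed6* and *Tmed11* moved most. *Tmed6* was at 204 and 195 with saline and 27.9 and 26.8 with FAEE-SAP in WT, and at 247 and 216 with saline and 119 and 119 with FAEE-SAP in cKO, a fall of 2.87 on the log2 scale in WT (SE 0.15, adjusted p = 0.0018). It was 2.11 higher in cKO than in WT with FAEE-SAP (SE 0.16, adjusted p = 0.015), and its interaction passed the test at 1.91 (SE 0.20, adjusted p = 0.041). That adjusted p lay near the threshold. How the interaction of *Tmed6* depends on the scaling or on single libraries was not examined. *Tmed11* fell by 3.34 (SE 0.21, adjusted p = 0.0026) and was 2.64 higher in cKO (SE 0.19, adjusted p = 0.015). The ratio of *Tmed6* to *Tmed10* within a library was 11.1 and 9.08 in WT saline and 1.91 and 1.97 in WT FAEE-SAP. The others that fell were *Magt1*, an oxidoreductase subunit of oligosaccharyltransferase, by 1.10 (adjusted p = 0.030), *Sec16b* of ER exit sites by 1.31 (adjusted p = 0.041), and the SNARE *Bet1* by 1.03 (adjusted p = 0.041). *Sec16b* was near the filter minimum, at 0.70 and 0.80 in WT saline and 0.24 and 0.27 in WT FAEE-SAP. As deposited, *Magt1* and *Bet1* turned, at 0.21 and 0.26, and *Sec16b* had -0.20, and each of the 3 missed the adjusted p whichever WT library was left out. The values of *Tmed6* and *Tmed11* for cKO against WT missed it without either WT FAEE-SAP library, at 2.07 to 2.11 and 2.504 to 2.74. In cKO with FAEE-SAP against saline and in the saline comparison 0 of these lists' genes were called.

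A list of transcription factors of the secretory apparatus had 11 genes tested in WT, among them *Ern1*, which is not itself a transcription factor. Of the 11, 4 fell and 1 rose in WT, against 3.86% and 3.08% of all genes. *Bhlha15* (Mist1), which sets the secretory program of acinar cells, was at 28.3 and 29.9 with saline and 3.81 and 1.71 with FAEE-SAP in WT, and at 39.6 and 18.2 with saline and 20.8 and 19.0 with FAEE-SAP in cKO. It fell by 3.47 on the log2 scale in WT (SE 0.37, adjusted p = 0.0085) and was 2.91 higher in cKO than in WT with FAEE-SAP (SE 0.38, adjusted p = 0.035). *Creb3l1*, an ER-anchored factor that induces COPII and other transport genes, fell by 1.51 in WT (SE 0.21, adjusted p = 0.018) and was 1.78 higher in cKO (SE 0.25, adjusted p = 0.042), though as deposited its value in WT was -0.23 and not called. *Xbp1* went the other way, at 47.8 and 53.1 in WT saline and 147 and 119 in WT FAEE-SAP, a rise of 1.39 (SE 0.17, adjusted p = 0.013). Its spliced form cannot be read from a value per gene. *Ptf1a*, which helps to set the enzyme genes of acinar cells, fell by 1.81 (SE 0.26, adjusted p = 0.020), and *Atf6* by 1.05. In cKO, FAEE-SAP against saline gave -1.49 for *Ptf1a*, -0.60 for *Atf6*, and 0.52 for *Xbp1*, none called. The cKO values of *Bhlha15* and *Creb3l1* were -0.40 and 0.08, also not called. No gene of this list was called in the interaction, where *Ptf1a* had 0.27 (SE 0.42, adjusted p = 0.83 by limma). As deposited in WT, *Atf6* was 0.25 higher and *Ptf1a* had -0.50, not called. With 1 library left out, the WT fold changes of *Creb3l1*, *Xbp1*, *Atf6*, and *Ptf1a* kept their sign. The adjusted p was missed by *Atf6* whichever WT library was left out, by *Creb3l1* without either saline library or FAEE-SAP replicate 2, by *Xbp1* without saline replicate 1 or either FAEE-SAP library, and by *Ptf1a* without replicate 2 of saline or of FAEE-SAP. For cKO against WT with FAEE-SAP, *Bhlha15* and *Creb3l1* missed it whichever of the 4 libraries was left out, with values from 2.34 to 3.45 and from 1.595 to 1.97.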

How the data were processed

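Expression values were analysed for pancreata of WT and cKO mice with saline or FAEE-SAP. The authors prepared directional libraries, filtered reads with fastp, mapped them to Ensembl GRCm38.p6 in CLC Genomics Workbench, and deposited RPKM per gene; how RPKM was computed is not given in the sources used here. A gene entered a comparison if 2 of its libraries or more had an RPKM of 0.5 or above. Scaling within a comparison used the median of ratios. The test was limma 3.58.1 (R 4.3.3) with a variance trend, applied to log2(scaled RPKM + 0.1). Genes were called at a Benjamini-Hochberg adjusted p under 0.05 and a 2-fold change or more. P-values were adjusted over all genes tested. Values per library were scaled over all 8 libraries, from which the fold changes of the 46 genes within comparisons differed by at most 0.031 in log2. Library totals were recovered from low values, of which 83.9% to 85.4% came out whole within 0.1 reads. Whether reads or pairs were counted was not settled.

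The 46 genes, the other lists and the markers were chosen with earlier results of these data known. Full values were given for called genes, for the most abundant and the most changed gene of each role, and for the smallest p of each role in cKO against WT with FAEE-SAP or in the interaction. Of each other list, the called genes with the largest changes, up to 3 a comparison, were named with values. Genes outside this rule (*Sec11a*, *Sec61b*, *Xbp1*, *Atf6*, and the partners in ratios) were chosen after their values were seen. Alternatives were no scaling, a trimmed mean, quantile normalization, other filters and pseudocounts, no trend, 1 model of all 8 libraries, a replicate block, other thresholds, and each library left out. The procedure was tested on simulated data in which as many genes rose as fell and library composition did not shift. The scaling was therefore not tested by it. Tables and figures were made with Python 3.11.15, pandas 2.3.3, and matplotlib 3.10.9. Exact permutation tests could not pass 0.05 with 2 libraries a group and were not used.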

Additional observations from a re-analysis of the deposited data

Results flagged for a closer look

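The response to FAEE-SAP was picked out for a gene outside the 46, by a test, and for 3 of the 46 by the direction of their libraries alone. For *Tmed6* the interaction itself passed the test, with a log2 difference of 1.91 (adjusted p = 0.041 by limma, near the threshold). Its dependence on the scaling or on single libraries was not examined. For *Stt3a*, *Copa*, and *Arf4* both WT FAEE-SAP libraries lay above both WT saline libraries while both cKO FAEE-SAP libraries lay below both cKO saline libraries, with interaction log2 differences of -0.80, -0.62, and -0.66, none past the adjusted threshold (adjusted p = 0.272, 0.340, and 0.333 by limma). Such opposite directions were seen in 3 of 46 (6.52%), against 5.67% of all genes tested, so no difference was shown for these 3. *Copa*, the alpha subunit of COPI, was at 7.67 and 8.55 with saline and 10.2 and 11.1 with FAEE-SAP in WT, and at 8.95 and 8.07 with saline and 6.94 and 7.48 with FAEE-SAP in cKO. With 2 libraries a group no library was tested as an outlier.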

How the results depend on the processing

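With values as deposited, called genes among the 46 were 24, all higher, for FAEE-SAP in WT, 15, all lower, for cKO against WT with FAEE-SAP, and 5, all lower, for the interaction, and the medians were 1.02 in WT, 0.52 in cKO, -0.63 for cKO against WT with FAEE-SAP, -0.20 with saline, and -0.48 for the interaction. In WT, *Ssr4*, *Lman1*, *Sec61b*, *Atf6*, *Magt1*, and *Bet1* then had values of 0.056, 0.11, 0.43, 0.25, 0.21, and 0.26, above 0, and *Sec11c* and *Tram1* had -0.10 and 0.00. Quantile normalization gave medians of -0.22 in WT and 0.24 for cKO against WT with FAEE-SAP, no filter -0.22 and 0.25, and an RPKM minimum of 2 gave 0.38 for the latter. For that comparison 2 genes (*Sec11c* and *Tram1*) were called higher with an RPKM minimum of 2, 1 (*Sec11c*) in the model of all 8 libraries, 2 with the replicate block, and 2 at an unadjusted p under 0.05 with the 2-fold minimum kept, a rule that also gave 2 for the interaction. The cause of the other changes was not tested. Leaving out each library in turn gave 0 to 3 called genes in WT (0 without WT FAEE-SAP replicate 2, and 1 each without WT saline replicate 1 and without WT FAEE-SAP replicate 1) and 0 in the other comparisons. Medians then ran from -0.42 to -0.23 in WT, -0.29 to 0.12 in cKO, 0.24 to 0.40 for cKO against WT with FAEE-SAP, -0.13 to 0.22 with saline, and -0.071 to 0.39 for the interaction.

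Same-numbered libraries did not deviate together throughout. The correlation of their deviations over 11133 genes was -0.32, -0.17, and -0.52 for the pairs of groups with WT saline and 0.18, 0.40, and 0.30 for the pairs among the other groups. No source used here says what a number shares, so the numbers were not taken as pairs. The replicate block left 3 called genes in WT, without *Lman1*, gave 2, *Sec11c* and *Lman1*, both higher, for cKO against WT with FAEE-SAP (0 without it), where the correlation was 0.30, and left 0 in cKO, with saline, and in the interaction. Exchanging the WT saline numbers in the block, added after seeing the data, gave 4, 0, and 0 in WT, with saline, and in the interaction.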
